A study of Mus musculus with 9 samples.

Results

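The 7 genes described here, in cells of the established renal carcinoma line Caki (human, clear cell type), are CLSTN2, DLGAP1, SYT13, RGS5, ADGRG2, NYNRIN and PLA1A. The count table holds 58735 genes, and these were chosen by symbol, as synaptic, G-protein and other genes of appreciable level that were much lower in cells with an introduced YAP1 than in cells with the empty vector. The YAP1-S127A cells carried a YAP1 with alanine in place of serine at position 127, which per the labels makes the protein constitutively active. The YAP1 cells carried the wild-type protein, and the MX cells carried the empty vector. All of the cells received a retrovirus-based vector and were selected with G418, so MX shares the vector and the drug. Each group held 3 libraries, 9 in all. The labels do not say whether a group's cells were a pool or a single clone, nor whether its libraries came from separate cultures. The p-values therefore reflect no more than the spread among these 9 libraries, and that spread may be technical. The series title also names oncogenes of a papillomavirus, which the labels of these 9 libraries do not mention. The labels give mouse as the organism, but the gene identifiers are human, and human genes are meant throughout.

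YAP1 is a transcriptional coactivator that acts mainly through TEAD factors. The Hippo kinases LATS1 and LATS2 phosphorylate it at the serine replaced in YAP1-S127A, which holds the protein in the cytoplasm. The 7 genes do not form a pathway. CLSTN2, a calsyntenin, and DLGAP1, a scaffold protein, belong to the postsynaptic side of contacts between neurons, and SYT13 belongs to the synaptotagmins of membrane traffic. RGS5 and ADGRG2 act in G-protein signalling, as an inhibitor and as a receptor. NYNRIN carries domains related to a nuclease and to a retroviral integrase, and PLA1A is a secreted phospholipase. Levels are given as CPM, counts relative to the library size after scaling by the trimmed mean of M values (TMM), and differences as log2 fold changes with a standard error (SE) from 1 edgeR quasi-likelihood fit over all 9 libraries. A gene was called at a Benjamini-Hochberg adjusted p under 0.05 over the 15492 genes tested.

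Total counts ran from 15789722 to 24811150 per library, so that 3 counts stood for 0.107 to 0.229 CPM. YAP1 itself had 741, 692 and 631 CPM in the YAP1-S127A libraries, 1519, 1003 and 1137 CPM in the YAP1 libraries and 108, 100.3 and 91.1 CPM in the MX libraries, so the YAP1 transcript was lower with the mutant than with the wild-type construct (log2 fold change -0.83, adjusted p = 0.00383 in edgeR). Mitochondrial transcripts took 29.6%, 7.40% and 21.2% of the counts in YAP1-S127A libraries, 3.50%, 8.60% and 11.4% in YAP1 libraries and 5.89%, 6.60% and 1.896% in MX libraries. Of the 12 markers of kidney tubule and renal carcinoma, PAX8 had 228 to 302 CPM in YAP1-S127A, 276 to 312 CPM in YAP1 and 279.9 to 291 CPM in MX libraries. PAX2 and LRP2 had at most 3 counts in any library, and CA9, a usual marker of clear cell carcinoma, had at most 18. YAP1-S127A differed from MX in 2845 genes, 1476 higher and 1369 lower, YAP1 from MX in 1055, 500 higher and 555 lower, and YAP1-S127A from YAP1 in 305, 175 higher and 130 lower. Scaled by total counts alone, the split became 611 higher and 3836 lower between YAP1-S127A and MX, with a median log2 fold change over all genes of -0.28, and 113 higher and 503 lower between the constructs, with a median of -0.20.

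All 7 genes passed the filter on low counts. The values that chose them are the comparisons with MX, so the differences from MX are given as a description. Calls of the 7 genes against MX follow from that choice and do not serve as a test. Against MX, every YAP1-S127A library lay below every MX library for 7 of 7 genes, where 16% of all tested genes did so. Every YAP1 library lay below every MX library for 6 of 7, where 12% of all genes did so. The median log2 fold change of the 7 genes was -2.29 between YAP1-S127A and MX, within -2.60 to -1.77, and -1.24 between YAP1 and MX, within -2.64 to -0.76. The median of all tested genes was -0.00 in both comparisons. A log2 fold change under -1 was found for 7 of the 7 genes between YAP1-S127A and MX, beside 4.38% of all genes, and for 5 between YAP1 and MX, beside 2.61%. By adjusted p, 7 and 6 of the 7 genes were called lower, beside 8.84% and 3.58% of all genes. In YAP1 against MX the call of ADGRG2 was lost in 7 of 20 alternative settings, among them the fits without YAP1-S127A replicate 3, YAP1 replicate 2 or 3 and MX replicate 1 or 2, while DLGAP1, which was not called, was called in 11. Nothing can be read from these counts, since the genes were picked for them. YAP1-S127A against YAP1 was not named in the choice, but it uses the same libraries and is not independent of it. In that comparison 4 of the 7 genes were called lower, SYT13, NYNRIN, ADGRG2 and PLA1A, beside 0.839% of all genes, and 4 had a log2 fold change under -1, SYT13, NYNRIN, ADGRG2 and DLGAP1, beside 1.3%.

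**Figure D1:**
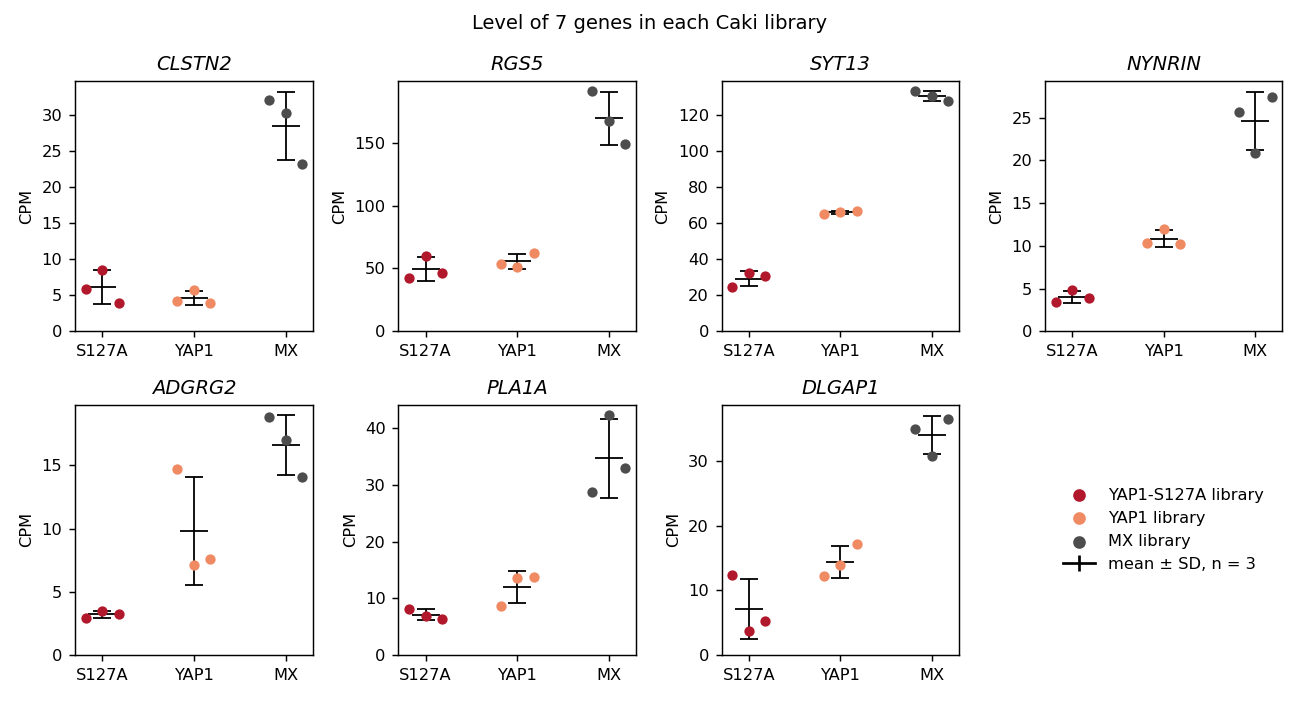
Level of each of the 7 genes in CPM (vertical axis, linear from 0) in every library of YAP1-S127A, YAP1 and MX; points are libraries and black marks are the mean ± SD (n = 3). For CLSTN2 and RGS5 the libraries of both constructs overlap, whereas SYT13, NYNRIN and ADGRG2 are lower again with YAP1-S127A, and YAP1-S127A replicate 1 stands above its group for DLGAP1.

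Per kilobase of the gene length deposited beside the counts, RGS5 and SYT13 were the most abundant of the 7 genes in MX cells, with 24.9 ± 3.14 and 24.1 ± 0.519 CPM per kb (SD, n = 3), which do not differ beyond their spread. PLA1A followed at 15.7 ± 3.16 CPM per kb in MX cells. NYNRIN, DLGAP1, CLSTN2 and ADGRG2 had 3.10 ± 0.429, 2.82 ± 0.242, 1.96 ± 0.324 and 1.64 ± 0.233 CPM per kb in MX cells. In MX cells the mean of DLGAP1 lay within 1 SD of that of NYNRIN, and the mean of ADGRG2 within 1 SD of that of CLSTN2. In YAP1-S127A cells the order began with RGS5 at 7.27, SYT13 at 5.38 and PLA1A at 3.22 CPM per kb, and the other 4 genes lay between 0.317 for ADGRG2 and 0.590 for DLGAP1. In YAP1 cells SYT13 was first at 12.2 CPM per kb, ahead of RGS5 at 8.18, and CLSTN2 was last at 0.315.

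CLSTN2 (ENSG00000158258, chromosome 3, 139935185 to 140577397, plus strand in the table, for which the sources used here give no human build) encodes a calsyntenin, a membrane protein with cadherin repeats found at postsynaptic membranes. It had 5.87, 8.56 and 3.94 CPM in YAP1-S127A libraries, 4.20, 5.72 and 3.86 CPM in YAP1 libraries and 32.2, 30.3 and 23.2 CPM in MX libraries. The libraries of both constructs overlap each other and all lie far below the lowest MX library. The log2 fold change was -2.23 ± 0.22 (SE) between YAP1-S127A and MX and -2.64 ± 0.23 between YAP1 and MX. Among 9523 tested coding genes whose mean log2 CPM was 3 or more, CLSTN2 ranked 12 from the lowest fold change between YAP1-S127A and MX and 1 between YAP1 and MX. Between the constructs the log2 fold change was 0.41, with a 95% interval of -0.10 to 0.92 (edgeR adjusted p = 0.529), so differences within these bounds were not resolved.

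RGS5 (ENSG00000143248, chromosome 1, 163111121 to 163321791, minus strand) encodes an activator of the GTPase of Gi and Gq alpha subunits, which shortens signalling by G-protein-coupled receptors; in tissues it is known as a marker of pericytes. It had 42.0, 60.2 and 46.6 CPM in YAP1-S127A libraries, 53.6, 51.3 and 62.3 CPM in YAP1 libraries and 192, 168 and 149 CPM in MX libraries. As with CLSTN2, the construct libraries overlap and all lie below MX. The RGS5 log2 fold change was -1.77 ± 0.14 (SE) between YAP1-S127A and MX and -1.60 ± 0.14 between YAP1 and MX. RGS5 ranked 7 from the lowest in YAP1 against MX and 32 in YAP1-S127A against MX. Between the constructs the log2 fold change was -0.17, with a 95% interval of -0.46 to 0.12 (edgeR adjusted p = 0.690). A second identifier carries the symbol RGS5, ENSG00000232995, listed as an antisense biotype on the same strand. That identifier had 6 to 25 counts in YAP1-S127A, 11 to 31 in YAP1 and 19 to 29 in MX libraries and was not called in YAP1-S127A against MX (log2 fold change -0.11, edgeR adjusted p = 0.904). How reads shared by both identifiers were assigned is not given.

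Because RGS5 marks pericytes in tissues, other mural cell markers were read beside it. Their summed level over 8 genes was 236 to 283 CPM in YAP1-S127A, 161 to 219 CPM in YAP1 and 135 to 169.7 CPM in MX libraries, most of it from MCAM, a cell adhesion molecule. The sum does not stand for the list: of the 7 markers tested, 3 rose and 0 fell in YAP1-S127A against MX, beside 9.53% and 8.84% of all genes, and their median log2 fold change was -0.04. ABCC9, a subunit of a potassium channel, averaged 10.6 CPM in YAP1-S127A cells and 3.27 CPM in MX cells (log2 fold change 1.68, edgeR adjusted p = 1.64e-06), and MCAM and PDGFRB were also called (log2 fold change 0.99 and 0.63). The PDGFRB call was lost with total counts and without YAP1-S127A replicate 2 (edgeR adjusted p 0.0568 to 0.0753). CSPG4, ACTA2, KCNJ8 and NOTCH3 were not called, with log2 fold changes of -0.04, -0.31, -0.47 and -0.50. In YAP1 against MX the median of the 7 markers was -0.24, with 2 risers, ABCC9 and MCAM, and 0 that fell, beside 3.23% and 3.58% of all genes. Without YAP1 replicate 2 that MCAM call was lost (edgeR adjusted p = 0.0627). The part of these markers in the level of RGS5 was not tested.

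SYT13 (ENSG00000019505, chromosome 11, 45240301 to 45286319, minus strand) encodes an atypical synaptotagmin that lacks the residues by which other family members bind calcium. It had 24.4, 32.6 and 30.5 CPM in YAP1-S127A libraries, 65.2, 66.2 and 66.9 CPM in YAP1 libraries and 134, 131 and 128 CPM in MX libraries. The 3 groups form separate steps with no overlap, and the spread within the YAP1 and MX groups was small, with an SD of 0.836 and 2.82 CPM. The SYT13 log2 fold change was -2.16 ± 0.12 (SE) between YAP1-S127A and MX and -0.98 ± 0.12 between YAP1 and MX. SYT13 was lower in YAP1-S127A than in YAP1 cells, with a log2 fold change of -1.18 ± 0.12 (SE, edgeR adjusted p = 3.32e-05). It ranked 10 from the lowest among the 9523 genes between the constructs.

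NYNRIN (ENSG00000205978, chromosome 14, 24398786 to 24419288, plus strand) encodes a protein with a NYN domain, a fold of ribonucleases, and a region derived from a retroviral integrase. It had 3.43, 4.82 and 3.94 CPM in YAP1-S127A libraries, 10.3, 11.95 and 10.2 CPM in YAP1 libraries and 25.6, 20.9 and 27.5 CPM in MX libraries. Its groups also form 3 separate steps. For NYNRIN the log2 fold change was -2.60 ± 0.17 (SE) between YAP1-S127A and MX, the lowest of the 7 genes in that comparison, and -1.19 ± 0.15 between YAP1 and MX. NYNRIN was lower in YAP1-S127A than in YAP1 cells by a log2 fold change of -1.40 ± 0.17 (SE, edgeR adjusted p = 0.000238). It ranked 5 from the lowest both between the constructs and between YAP1-S127A and MX.

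ADGRG2 (ENSG00000173698, chromosome X, 18989309 to 19122637, minus strand) encodes an adhesion G-protein-coupled receptor, known from the efferent ducts and epididymis of the male reproductive tract. It had 2.90, 3.49 and 3.26 CPM in YAP1-S127A libraries, 14.7, 7.14 and 7.59 CPM in YAP1 libraries and 18.8, 17.0 and 14.1 CPM in MX libraries. YAP1 replicate 1 lies above the lowest MX library, so the YAP1 and MX groups overlap, while the YAP1-S127A libraries lie together below all others. Fitted log2 fold changes were -2.36 ± 0.25 (SE) between YAP1-S127A and MX and -0.76 ± 0.22 between YAP1 and MX. Over 20 alternative settings the log2 fold change between YAP1 and MX ranged from -1.17, without YAP1 replicate 1, to -0.58, without YAP1 replicate 2. ADGRG2 ranked 1 from the lowest between the constructs, with a log2 fold change of -1.60 ± 0.25 (SE, edgeR adjusted p = 0.00174). It ranked 93 between YAP1 and MX.

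PLA1A (ENSG00000144837, chromosome 3, 119597842 to 119629811, plus strand) encodes a secreted phospholipase that cleaves phosphatidylserine and yields lysophosphatidylserine, a lipid mediator. It had 8.16, 6.79 and 6.36 CPM in YAP1-S127A libraries, 8.65, 13.5 and 13.7 CPM in YAP1 libraries and 28.7, 42.3 and 33.0 CPM in MX libraries. The groups do not overlap, but the gap between the highest YAP1-S127A and the lowest YAP1 library is small. The log2 fold change was -2.29 ± 0.19 (SE) between YAP1-S127A and MX and -1.53 ± 0.18 between YAP1 and MX. PLA1A was lower in YAP1-S127A than in YAP1 cells by a log2 fold change of -0.76 ± 0.19 (SE, edgeR adjusted p = 0.0479). That call lies at the threshold. It was lost in 8 of 20 alternative settings, among them the fits without YAP1-S127A replicate 2 or 3, without YAP1 replicate 2 or 3 and without MX replicate 3, where edgeR's adjusted p was 0.153, 0.262, 0.192, 0.219 and 0.0646.

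DLGAP1 (ENSG00000170579, chromosome 18, 3496032 to 4455335, minus strand) encodes a scaffold protein, also called GKAP, that links DLG4 to SHANK proteins in the postsynaptic density. It had 12.4, 3.74 and 5.25 CPM in YAP1-S127A libraries, 12.2, 13.9 and 17.1 CPM in YAP1 libraries and 35.0, 30.9 and 36.6 CPM in MX libraries. YAP1-S127A replicate 1 lies within the YAP1 libraries, the other two YAP1-S127A libraries lie below them, and MX lies above all. The log2 fold change was -2.29 ± 0.35 (SE) between YAP1-S127A and MX and -1.24 ± 0.33 between YAP1 and MX, the widest SEs among the 7 genes. Between the constructs it was -1.05, with a 95% interval of -1.86 to -0.25, and was not called (edgeR adjusted p = 0.248), nor in 16 of 20 alternative settings, with adjusted p values up to 0.607. Leaving out YAP1-S127A replicate 2 gave a log2 fold change between the constructs of -0.75. Leaving out replicate 1 of that group gave -1.68 (edgeR adjusted p = 0.000144) and, between YAP1-S127A and MX, -2.92. That library, YAP1-S127A replicate 1, also had the highest mitochondrial share, 29.6%. YAP1-S127A replicate 3, with the next highest share, 21.2%, had 5.25 CPM of DLGAP1. With the mitochondrial share as a covariate the log2 fold change between YAP1-S127A and MX was -2.86. The part of the mitochondrial share in the DLGAP1 level of YAP1-S127A replicate 1 was not tested.

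**Figure D2:**
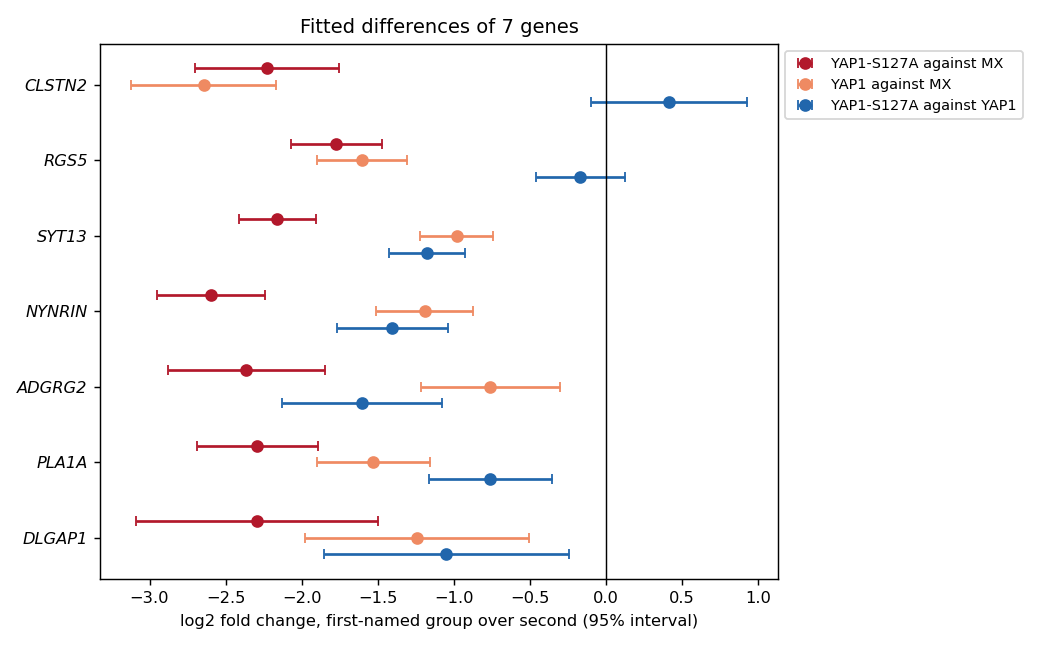
Fitted log2 fold change (horizontal axis) of each of the 7 genes in YAP1-S127A against MX, YAP1 against MX and YAP1-S127A against YAP1, with 95% intervals of the fit. Between the constructs SYT13, NYNRIN, ADGRG2 and DLGAP1 lie below -1, and the intervals of CLSTN2 and RGS5 include 0.

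The 7 genes thus show different courses over the 3 groups. The median log2 fold change between the constructs was -1.05 for the 7 genes and 0.01 for all tested genes, within -1.60 for ADGRG2 and 0.41 for CLSTN2. Every YAP1-S127A library was below every YAP1 library for 4 of the 7 genes, beside 9.34% of all genes. For SYT13, NYNRIN and PLA1A the groups formed steps in which every YAP1-S127A library was below every YAP1 library and every YAP1 library below every MX library, a course that 337 of all tested genes, 2.18%, followed. Transcript of YAP1 itself ran otherwise, highest in the YAP1 group. The calls of SYT13, NYNRIN and ADGRG2 between the constructs held in all 20 alternative settings, with adjusted p values of at most 0.000552, 0.00461 and 0.0201, while CLSTN2 and RGS5 were called in none of them. The steps below MX follow from the choice of the 7 genes. The values between the constructs are not independent of that choice, so the shares of all genes beside them are no test. In bulk libraries, fewer cells that express a gene and less of its RNA per cell cannot be told apart.

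CLSTN2, DLGAP1 and SYT13 have neuronal names or roles, so neuron markers were examined. Their summed level over 10 genes was 10.3 to 11.4 CPM in YAP1-S127A, 10.5 to 14.0 CPM in YAP1 and 15.2 to 19.5 CPM in MX libraries. ELAVL3 and ELAVL4 had no count in any library, and RBFOX3, SYN1, STMN2 and DCX had at most 9. Of the 4 that were tested, GAP43, a growth cone protein, and MAP2, a microtubule-associated protein, fell in YAP1-S127A against MX (log2 fold change -0.81 and -0.71, edgeR adjusted p = 0.00992 and 0.0480). GAP43 also fell in YAP1 against MX (log2 fold change -0.78, adjusted p = 0.0235). These are 50% and 25% of the tested markers, beside 8.84% and 3.58% of all genes. TUBB3 and SNAP25 were called in neither comparison (YAP1-S127A against MX, log2 fold change -0.73 and -0.54, edgeR adjusted p = 0.119 and 0.180). The MAP2 call was lost in 14 of 20 settings, including every fit without a YAP1-S127A or MX library (adjusted p up to 0.307), and without YAP1 replicate 1 or 3. The GAP43 calls were lost in 3 settings for YAP1-S127A, among them the fits without YAP1-S127A replicate 3 or MX replicate 3 (adjusted p up to 0.187), and in 4 for YAP1, among them the fits without YAP1 replicate 1 or 2 or MX replicate 3 (adjusted p up to 0.161). The part of these markers in the levels of CLSTN2, DLGAP1 and SYT13 was not tested. Neuroendocrine markers summed to 1.10 to 1.97 CPM in YAP1-S127A, 0.963 to 1.35 CPM in YAP1 and 2.00 to 2.22 CPM in MX libraries over 8 genes, with INSM1 at 0 in all 9 libraries. Endothelial and leukocyte markers summed to at most 1.93 and 3.74 CPM in any library. The lowest group mean among the 7 genes was 3.21 CPM, that of ADGRG2 in YAP1-S127A cells. The level of a gene and a sum over a list are unlike measures and were not compared. The summed kidney and renal carcinoma markers were lower with the constructs, 1152 to 1357 CPM in YAP1-S127A, 1735 to 1962 CPM in YAP1 and 3033 to 3500 CPM in MX libraries. Most of that sum came from VCAM1, with means of 614, 955 and 2058 CPM in YAP1-S127A, YAP1 and MX cells, and CDH6, with 127, 277 and 585 CPM. In YAP1-S127A against MX 5 of 9 tested genes were lower and 0 higher, beside 8.84% and 9.53% of all genes. PAX8, CDH16, CUBN and HAVCR1 were not called there. Fibroblast markers ran the other way, 2064 to 3763 CPM in YAP1-S127A, 1303 to 1654 CPM in YAP1 and 746 to 1274 CPM in MX libraries. Nearly all of that sum was COL1A1, with means of 2826, 1482 and 929 CPM in YAP1-S127A, YAP1 and MX cells. In YAP1-S127A against MX 3 of 4 tested fibroblast genes were higher, COL1A1, LUM and FAP, beside 9.53% of all genes, and DCN was not called. PDGFRA and THY1 had at most 11 counts in any library. Epithelial markers summed to 3227 to 4981, 2977 to 3393 and 2236 to 3383 CPM in YAP1-S127A, YAP1 and MX libraries. Keratins carried that epithelial sum, and of the 6 epithelial genes tested 2 rose, KRT7 and KRT8, and 2 fell, CDH1 and EPCAM (log2 fold change -1.93 and -1.16, edgeR adjusted p = 3.6e-07 and 0.000145), in YAP1-S127A against MX. Of all genes 9.53% rose and 8.84% fell there. The KRT8 call was lost with total counts and without YAP1-S127A replicate 2 (edgeR adjusted p 0.0917 to 0.0923). The part of these lists in the levels of the 7 genes was not tested.

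Genes that lie near the 7 were set beside them, in a window of 500 kb on each side that was chosen after values had been seen. Of 68 tested neighbours, 7 fell and 5 rose in YAP1-S127A against MX, 10.3% and 7.35%, beside 8.84% and 9.53% of all tested genes. In YAP1 against MX 2 fell and 1 rose, 2.94% and 1.47%, beside 3.58% and 3.23% of all genes. Between the constructs 0 fell and 1 rose, RGS4, where 1.13% of all genes rose. The median log2 fold change over each of the 6 chromosomes involved lay within -0.08 and 0.07 in every comparison.

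Next to NYNRIN, NFATC4, a transcription factor that calcineurin switches on, fell to 1.23 CPM in YAP1-S127A and 1.85 CPM in YAP1 cells, against 7.85 CPM in MX cells. Its log2 fold change was -2.64 between YAP1-S127A and MX (edgeR adjusted p = 2.02e-06) and -2.09 between YAP1 and MX (adjusted p = 4.21e-05), and it was not called between the constructs (adjusted p = 0.519). CBLN3, a cerebellin on the other side of NYNRIN, fell in YAP1-S127A against MX (log2 fold change -1.39, edgeR adjusted p = 0.0176), a call lost in 3 of 20 alternative settings, the mitochondrial covariate and the fits without YAP1-S127A replicate 3 or MX replicate 1, with adjusted p values of 0.0797 to 0.127. TGM1, a transglutaminase in the same window, rose to 2.75 CPM in YAP1-S127A cells, against 1.20 CPM in MX cells (log2 fold change 1.18, edgeR adjusted p = 0.00802). LTB4R near NYNRIN and ADPRH near PLA1A fell (log2 fold change -0.77 and -0.76, adjusted p = 0.0413 and 0.0113), with the calls lost in 8 and 2 of 20 settings, LTB4R without each YAP1-S127A library in turn, YAP1 replicate 2 or MX replicate 2 and ADPRH without YAP1-S127A replicate 3. ARHGAP31 and B4GALT4 near PLA1A and MYL12B near DLGAP1 rose (log2 fold change 0.64, 0.57 and 0.51, edgeR adjusted p = 0.00194, 0.00235 and 0.00491), and each of these calls was lost with total counts and with the mitochondrial covariate (adjusted p 0.0603 to 0.274). TP53I11, at lower coordinates than SYT13, averaged 9.62 CPM in YAP1-S127A, 13.3 CPM in YAP1 and 34.4 CPM in MX cells, a log2 fold change of -1.84 (adjusted p = 4.96e-08) and -1.36 (adjusted p = 5.25e-06) against MX in edgeR. TP53I11 was not called between the constructs (adjusted p = 0.144), where SYT13 was.

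Genes that overlap RGS5 and DLGAP1 matter for the counts, since the libraries were stranded per the labels but the strand setting of the counting is not given. NUF2, a kinetochore gene on the opposite strand over part of RGS5, averaged 40.1 CPM in YAP1-S127A, 37.3 CPM in YAP1 and 35.2 CPM in MX cells and was not called in YAP1-S127A against MX (log2 fold change 0.19, edgeR adjusted p = 0.277). Over DLGAP1, DLGAP1-AS1 averaged 11.3, 10.6 and 12.9 CPM in YAP1-S127A, YAP1 and MX cells, and was not called in YAP1-S127A against MX (log2 fold change -0.18, edgeR adjusted p = 0.447). DLGAP1-AS2 averaged 9.38, 7.90 and 7.56 CPM in YAP1-S127A, YAP1 and MX cells and was not called there either (log2 fold change 0.31, edgeR adjusted p = 0.306). DLGAP1-AS3 had 2, 0 and 0 counts in YAP1-S127A libraries, 12, 3 and 2 in YAP1 libraries and 18, 9 and 42 in MX libraries (YAP1-S127A against MX, edgeR adjusted p = 0.00373; 0.209 with the mitochondrial share as a covariate). The part of these overlapping genes in the counts of RGS5 and DLGAP1 was not tested.

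**Figure D3:**
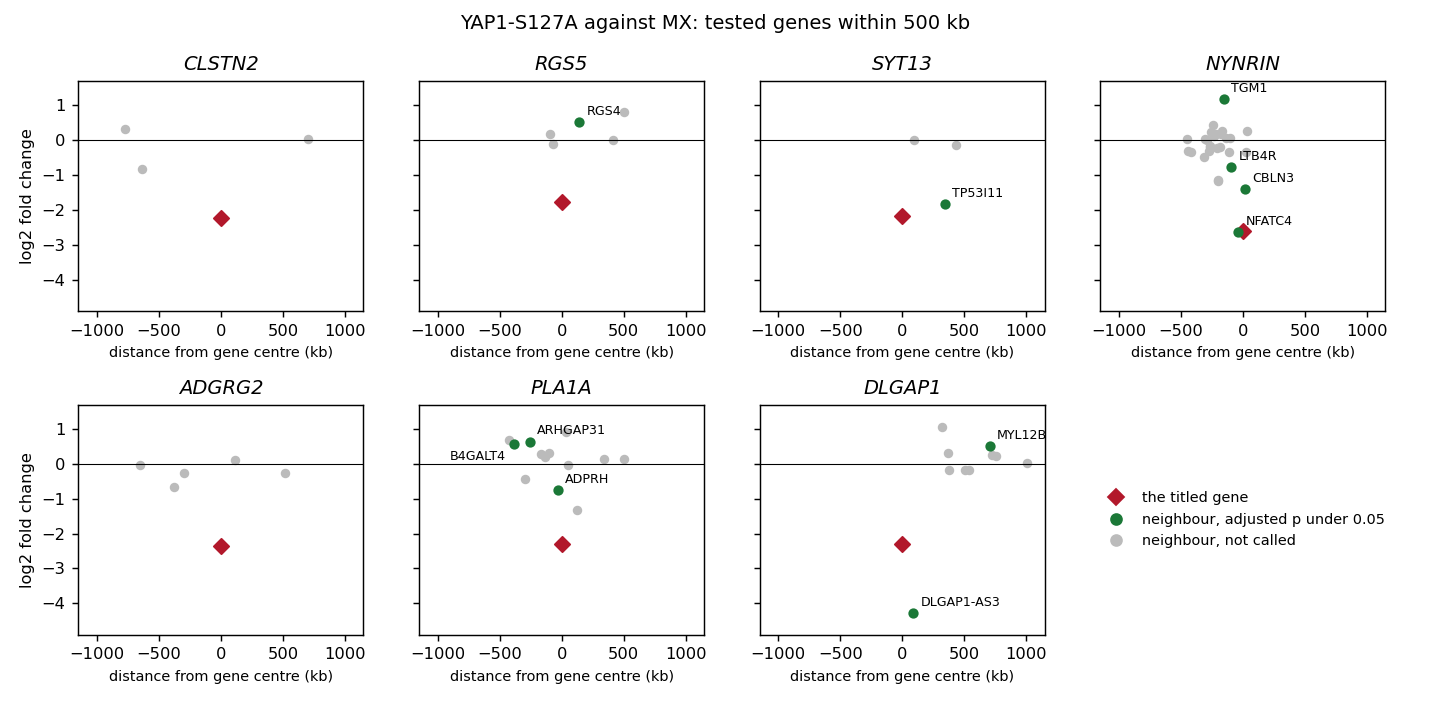
Fitted log2 fold change in YAP1-S127A against MX (vertical axis) of each of the 7 genes (diamonds) and of the tested genes within 500 kb of it (circles), by distance between gene centres in kb (horizontal axis, positive in the downstream direction of the titled gene); called neighbours are named, and 1 neighbour is left out. NFATC4 beside NYNRIN and TP53I11 beside SYT13 lie near the value of the titled gene, NUF2 over RGS5 lies at 0.19, and the value of DLGAP1-AS3 rests on very few counts.

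The relatives of the 7 genes were read from 11 lists of their families, which together hold 192 other genes, 114 of them tested. In YAP1-S127A against MX 17 of the 114 rose and 19 fell, 31.6% called beside 18.4% of all genes, with a median log2 fold change near 0 (5.15e-06). In YAP1 against MX 6 rose and 6 fell, 10.5% beside 6.81%, and the median was -0.03. Between the constructs 4 rose and 3 fell, 6.14% beside 1.97%, and the median was 0.00. Called relatives lay on both sides of 0 in each comparison.

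Among synaptic relatives, neither of the other calsyntenins was called in any comparison. Beside 18.4%, 6.81% and 1.97% of all genes, 2 genes are too few to show a difference from other genes. CLSTN1 averaged 280.1 CPM in YAP1-S127A, 276 CPM in YAP1 and 254 CPM in MX cells (YAP1-S127A against MX, edgeR adjusted p = 0.483), and CLSTN3 averaged 99.2, 111 and 120.2 CPM in YAP1-S127A, YAP1 and MX cells (adjusted p = 0.173). Of 13 tested organisers that span the synaptic cleft, 3 rose and 5 fell in YAP1-S127A against MX, 2 rose and 0 fell in YAP1 against MX, and 1 rose and 0 fell between the constructs. In that order 61.5%, 15.4% and 7.69% were called, beside 18.4%, 6.81% and 1.97% of all genes. FLRT2, a leucine-rich-repeat adhesion protein, was among those called in all 3 comparisons. It rose to 7.17 CPM in YAP1-S127A cells, against 2.06 CPM in MX cells (log2 fold change 1.80, edgeR adjusted p = 1.79e-05), whereas its calls in YAP1 against MX (0.85, adjusted p = 0.0351) and between the constructs (0.95, adjusted p = 0.0318) were lost in 9 and 6 of 20 settings. The fits that lost FLRT2 were those without 1 of the YAP1 libraries (each in turn) or MX replicate 2 or 3 in YAP1 against MX, and without YAP1-S127A replicate 2 or 3 or YAP1 replicate 1 or 3 between the constructs, among others, with adjusted p values up to 0.186 and 0.164. Its relative FLRT3 fell to 2.48 CPM in YAP1-S127A cells, against 5.43 CPM in MX cells (log2 fold change -1.15, edgeR adjusted p = 0.00190). SLITRK4, another leucine-rich-repeat protein, fell to 5.26 CPM in YAP1-S127A cells, against 10.5 CPM in MX cells (log2 fold change -0.97, edgeR adjusted p = 0.00374), a call lost only with the mitochondrial share as a covariate (adjusted p = 0.0512).

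Of 13 tested relatives of DLGAP1 and its partner scaffolds, 3 fell and 0 rose in YAP1-S127A against MX, 23.1% called beside 18.4% of all genes. HOMER2, which ties receptors to the scaffold, averaged 8.52 CPM in YAP1-S127A, 11.4 CPM in YAP1 and 19.1 CPM in MX cells and fell against MX with both constructs (log2 fold change -1.16 with edgeR adjusted p = 4.52e-05 for YAP1-S127A, and -0.74 with 0.00587 for YAP1). Without YAP1 replicate 3 the second of these calls was lost (adjusted p = 0.0588). DLG2 fell to 0.940 CPM in YAP1-S127A cells, against 3.28 CPM in MX cells (log2 fold change -1.81, edgeR adjusted p = 0.000961). DLG3 fell by 0.47 on the log2 scale in YAP1-S127A against MX (edgeR adjusted p = 0.0115), and with the mitochondrial share as a covariate that call was lost (adjusted p = 0.138). In YAP1 against MX 1 of the 13 was called, 7.69% beside 6.81% of all genes. None of the 13 was called between the constructs, where 1.97% of all genes were, a share from which 0 of 13 cannot be told.

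Of 6 other synaptotagmins tested, 1 rose and 2 fell in YAP1-S127A against MX, 50% called beside 18.4% of all genes. SYT12 fell to 25.6 CPM in YAP1-S127A cells, against 44.0 CPM in YAP1 and 46.7 CPM in MX cells. Its log2 fold change was -0.87 against MX (edgeR adjusted p = 0.000160) and -0.78 against YAP1 (adjusted p = 0.00368), the call against YAP1 being lost with the mitochondrial share as a covariate (adjusted p = 0.0546), and YAP1 against MX was not called (adjusted p = 0.795). SYT1, the calcium sensor of fast transmitter release, fell in YAP1 against MX (log2 fold change -0.54, edgeR adjusted p = 0.00778) and in YAP1-S127A against MX (log2 fold change -0.41, adjusted p = 0.0214), where the call was lost without YAP1-S127A replicate 2, YAP1-S127A replicate 3 or MX replicate 3 (adjusted p 0.0546 to 0.109). SYT14 rose in YAP1-S127A against MX at an adjusted p of 0.0480, in edgeR, and the call was lost in 11 of 20 alternative settings, among them the fits without YAP1-S127A replicate 2 or 3, without each YAP1 library in turn and without MX replicate 2 or 3 (adjusted p 0.0501 to 0.267). Of 26 tested genes of the exocytosis machinery, 7 rose and 2 fell in YAP1-S127A against MX, 34.6% called beside 18.4% of all genes. In YAP1 against MX 1 rose and 1 fell, 7.69% beside 6.81%. Between the constructs 1 rose, 3.85% beside 1.97%, the syntaxin STX11 (log2 fold change 1.41, edgeR adjusted p = 0.0495). That call was lost in 9 of 20 settings, among them the fits without YAP1-S127A replicate 2 or 3, each YAP1 library in turn or MX replicate 3 (adjusted p up to 0.347). RIMS1, a scaffold of the presynaptic active zone, rose with both constructs, at 4.07 CPM in YAP1-S127A and 3.98 CPM in YAP1 cells, against 1.501 CPM in MX cells (log2 fold change 1.43 and 1.39, edgeR adjusted p = 0.000482 and 0.00139). CPLX1, a complexin that clamps vesicle fusion, fell with both, at 3.01 CPM in YAP1-S127A and 2.86 CPM in YAP1 cells, against 7.02 CPM in MX cells (log2 fold change -1.19 and -1.29, edgeR adjusted p = 0.00123 and 0.00139); for YAP1-S127A the call was lost with the mitochondrial share as a covariate (adjusted p = 0.0700). UNC13D, which primes vesicles and granules, rose to 6.13 CPM in YAP1-S127A cells, against 2.15 CPM in MX cells (log2 fold change 1.54, edgeR adjusted p = 0.000142).

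**Figure D4:**
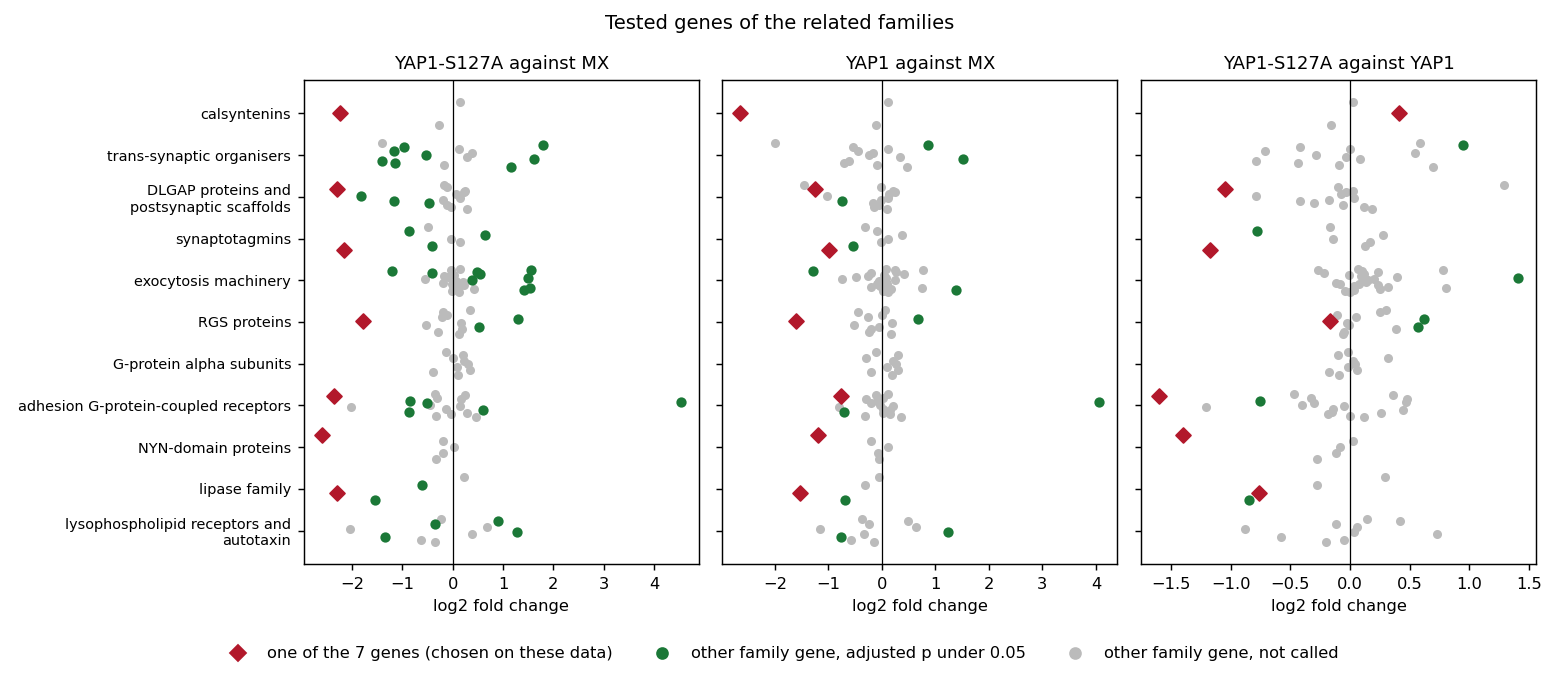
Fitted log2 fold change (horizontal axis) of each tested gene of the 11 families (rows) in the 3 comparisons (panels, each with its own scale), with called genes and the 7 genes marked apart. Called relatives lie on both sides of 0, the 7 genes lie to the left against MX, and the value of ADGRF1 among adhesion receptors rests on at most 2 counts per MX library.

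In G-protein signalling, the called relatives of RGS5 were RGS20 and RGS4. Of 11 other tested RGS genes, 2 rose and 0 fell in YAP1-S127A against MX, 18.2% called beside 18.4% of all genes. In YAP1 against MX 1 rose, 9.09% beside 6.81%, and 2 rose between the constructs, 18.2% beside 1.97%. RGS20 averaged 17.4 CPM in YAP1-S127A, 11.3 CPM in YAP1 and 7.08 CPM in MX cells, and rose against MX with YAP1-S127A (log2 fold change 1.29, edgeR adjusted p = 2.62e-06) and with YAP1 (0.68, adjusted p = 0.00593). Between the constructs its call (log2 fold change 0.62, edgeR adjusted p = 0.0240) was lost in 7 of 20 settings, among them the fits without YAP1-S127A replicate 1, YAP1-S127A replicate 3 or each YAP1 library in turn, with adjusted p values of 0.0727 to 0.198. RGS4, which lies beside RGS5 on chromosome 1, had means of 16.2 CPM in YAP1-S127A, 10.9 CPM in YAP1 and 11.3 CPM in MX cells. RGS4 rose in YAP1-S127A against MX (log2 fold change 0.52, edgeR adjusted p = 0.0142), a call lost without MX replicate 2, with the mitochondrial covariate and with total counts (adjusted p 0.0520 to 0.335). Between the constructs RGS4 was called at an edgeR adjusted p of 0.0423 (log2 fold change 0.57), lost in 9 of 20 settings, among them every fit without a library of either construct and the fit without MX replicate 3 (adjusted p 0.0608 to 0.243). Of 9 tested G-protein alpha subunits, 0 were called by edgeR in any comparison. Of all genes 18.4% were called in YAP1-S127A against MX, 6.81% in YAP1 against MX and 1.97% between the constructs. With 9 genes, 0 calls cannot be told from these shares.

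Of 17 other adhesion receptors tested, 2 rose and 3 fell in YAP1-S127A against MX, 1 rose and 1 fell in YAP1 against MX, and 1 fell between the constructs. In that order 29.4%, 11.8% and 5.88% were called, beside 18.4%, 6.81% and 1.97% of all genes. ADGRF1 had 0.534 to 1.46 CPM in YAP1-S127A and 0.570 to 1.06 CPM in YAP1 libraries, against 0 to 0.0751 CPM in MX libraries, where it had at most 2 counts (edgeR adjusted p = 0.000115 and 0.00113). ADGRF4, a receptor of the same family, averaged 10.3 CPM in YAP1-S127A, 17.3 CPM in YAP1 and 18.4 CPM in MX cells (YAP1-S127A against MX, log2 fold change -0.84, edgeR adjusted p = 0.00136). ADGRF4's call between the constructs (log2 fold change -0.75, edgeR adjusted p = 0.0220) was lost without YAP1-S127A replicate 2 or 3 or YAP1 replicate 2 or 3, with adjusted p values of 0.0926 to 0.151. ADGRL2, a latrophilin, fell with both constructs, at 10.7 CPM in YAP1-S127A and 11.9 CPM in YAP1 cells, against 19.4 CPM in MX cells (log2 fold change -0.86 and -0.71, edgeR adjusted p = 0.00240 and 0.0192); for YAP1 the call was lost without YAP1 replicate 1, YAP1 replicate 3 or MX replicate 1 (adjusted p 0.0556 to 0.143).

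The 4 tested relatives of NYNRIN with a NYN domain were called in no comparison by edgeR. Beside 18.4%, 6.81% and 1.97% of all genes called in the 3 comparisons, 4 genes are too few to show a difference from other genes. KHNYN, 1 of the 4, lies beside NYNRIN and averaged 19.1 CPM in YAP1-S127A, 23.2 CPM in YAP1 and 23.9 CPM in MX cells (YAP1-S127A against MX, edgeR adjusted p = 0.129). Of 3 tested relatives of PLA1A in the lipase family, 2 fell in YAP1-S127A against MX, 66.7% called beside 18.4% of all genes. LIPG, the endothelial lipase, formed steps over the groups, with means of 9.93 CPM in YAP1-S127A, 17.9 CPM in YAP1 and 29.0 CPM in MX cells. LIPG fell in YAP1-S127A against MX (log2 fold change -1.54, edgeR adjusted p = 9.84e-07), in YAP1 against MX (-0.70, adjusted p = 0.00652) and between the constructs (-0.84, adjusted p = 0.00608, lost without YAP1 replicate 2 at 0.0507). LIPH, which makes lysophosphatidic acid, fell by 0.60 on the log2 scale in YAP1-S127A against MX (edgeR adjusted p = 0.0132), a call lost without YAP1-S127A replicate 2 or MX replicate 3 (adjusted p 0.0632 to 0.0777). Among 10 tested receptors of lysophospholipids and autotaxin, 2 rose and 2 fell in YAP1-S127A against MX, 40% called beside 18.4% of all genes. The sphingosine 1-phosphate receptor S1PR1 rose with both constructs, at 12.1 CPM in YAP1-S127A and 11.8 CPM in YAP1 cells, against 5.02 CPM in MX cells (log2 fold change 1.28 and 1.24, edgeR adjusted p = 1.73e-05 and 5.99e-05). S1PR3 rose to 19.0 CPM in YAP1-S127A cells, against 10.2 CPM in MX cells (log2 fold change 0.90, edgeR adjusted p = 0.000226). LPAR6, a receptor of lysophosphatidic acid, fell to 2.17 CPM in YAP1-S127A cells, against 5.55 CPM in MX cells (log2 fold change -1.35, edgeR adjusted p = 0.000208).

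Finally, the genes whose log2 CPM ran most like that of each of the 7 over the 9 libraries were taken from 9516 other protein-coding genes. Pearson's r is given as a description; the 9 libraries fall into 3 groups and are not independent points of a trend. For each of the 7, from 6 genes (CLSTN2) to 45 (SYT13) had r over 0.95. CLSTN2 ran most like MERTK, a receptor tyrosine kinase (r = 0.988), which averaged 9.81 CPM in YAP1-S127A, 9.51 CPM in YAP1 and 15.4 CPM in MX cells, and then like IFNGR2, a chain of the interferon gamma receptor (r = 0.965). RGS5 ran most like GNG4, a gamma subunit of G proteins (r = 0.973), which averaged 22.9 CPM in YAP1-S127A, 23.2 CPM in YAP1 and 51.0 CPM in MX cells, and then like TNS2, a tensin of focal adhesions (r = 0.971). For MERTK and GNG4, as for CLSTN2 and RGS5, the means with both constructs lay closer to each other than to the MX mean. That likeness follows largely from picking MERTK and GNG4 by their correlation over the same libraries.

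SYT13 and NYNRIN had the same nearest gene, LRIG3, a membrane protein with leucine-rich repeats (r = 0.994 and 0.993). SYT13 and NYNRIN themselves ran alike (r = 0.993), so their nearest genes are not separate observations. LRIG3 was 1 of 45 genes with r over 0.95 for SYT13 and of 40 for NYNRIN. LRIG3 averaged 33.7 CPM in YAP1-S127A, 57.4 CPM in YAP1 and 81.4 CPM in MX cells. These steps are like those of SYT13 and NYNRIN, a likeness by which LRIG3 was picked. The next were SRSF8, a splicing factor, for SYT13 (r = 0.986) and SPOCK1, a proteoglycan, for NYNRIN (r = 0.986). ADGRG2 ran most like CPSF3, the nuclease of messenger RNA cleavage (r = 0.976), and NUMA1, a spindle protein (r = 0.973). PLA1A ran most like NES, an intermediate filament protein known from neural progenitors (r = 0.985), with 20.8 CPM in YAP1-S127A, 37.1 CPM in YAP1 and 105 CPM in MX cells, and CLU, a secreted chaperone (r = 0.981). DLGAP1 ran most like CA2, a carbonic anhydrase (r = 0.993), with 91.8 ± 29.6 CPM in YAP1-S127A, 136 ± 8.87 CPM in YAP1 and 195 ± 14.4 CPM in MX cells (SD, n = 3), and FOXQ1, a forkhead factor (r = 0.980).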

How the data were processed

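RNA of 9 libraries of Caki cells was sequenced from stranded libraries of messenger RNA, per the labels. The authors deposited whole-number read counts per gene with no normalization visible, together with gene names, positions and lengths. The submitters' processing notes name HISAT2, Cufflinks, Salmon 1.9.0 and GRCm39 with no role or order. The gene identifiers are human. The human build, the program that counted and its use of strand were not given in the sources used here.

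Genes were kept by filterByExpr of edgeR 4.0.16 in R 4.3.3 (15492 of 58735), scaled by TMM and fitted with group as the only term (robust quasi-likelihood, two-sided tests, Benjamini-Hochberg adjustment over all tested genes); the steps were tested on simulated data. The SE was taken from the F statistic of the test (size of the log2 fold change over the root of F). Total counts per library were 15789722 to 24811150; floors cover counting error only. The alternatives used limma 3.58.1 (voom) and DESeq2 1.42.0, other scalings and filters, only the groups compared, the mitochondrial share as covariate, the replicate number as a block, and each library left out in turn.

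The 7 genes, the 11 family lists and the 8 marker lists were chosen with earlier results of these data known. Genes named in the text are the 7, YAP1, up to 3 called relatives per family with the smallest p, and for each of the 7 the 2 protein-coding genes (mean log2 CPM at least 3, prior count 2) with the highest Pearson correlation. Calsyntenins, STX11, KHNYN, markers and genes within 500 kb were named after their values had been seen. A neighbour in the counts is not reported here by name.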

Additional observations from a re-analysis of the deposited data

How the results depend on the processing

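Under 20 alternatives no difference of the 7 genes changed sign, nor did a called difference of the relatives, neighbours and markers rerun there; ADGRF1 and DLGAP1-AS3 in YAP1-S127A against MX gave a value in 19 and 18 of them. Against MX, 8 of the 280 values of the 7 genes moved by more than the replicate SD, 7 of them in YAP1-S127A and 1 in YAP1. Between the constructs DLGAP1 was also called with total counts (adjusted p = 0.00247), without a filter (0.00912) and in limma-voom (0.0325), and the PLA1A call was lost with RLE scaling (0.0503), a filter of 1 CPM in 3 libraries (0.0518) and limma-voom (0.117). Genes called between YAP1-S127A and MX numbered 4447 with total counts and 1286 with the mitochondrial covariate. Between the constructs they numbered 616 with total counts, 520 without a filter, 475 in DESeq2, 478 with only the groups compared and 472 with the replicate block. Related-family genes called with the mitochondrial covariate numbered 22 between YAP1-S127A and MX and 3 between the constructs.

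With 1 library left out, called genes ranged from 1847 (without YAP1-S127A replicate 3) to 3079 (without MX replicate 1) between YAP1-S127A and MX, from 601 (without YAP1 replicate 3) to 1423 (without MX replicate 1) between YAP1 and MX, and from 126 (without YAP1-S127A replicate 3) to 465 (without MX replicate 1) between the constructs. Called relatives ranged from 29 to 38, from 7 to 13 and from 2 to 9 in these comparisons, and the median log2 fold change of the 7 genes between the constructs from -1.16 to -0.75. No pairing of the samples by replicate number was visible, but with 3 libraries per group the correlations cannot exclude one. Same-numbered libraries deviated from their group means with correlations of -0.18 to 0.20 over 9 pairs, other pairs with -0.25 to 0.21, and 3 of 9 libraries correlated best with their own number. Depth limits genes such as ADGRF1 and DLGAP1-AS3, which had 3 or fewer counts in several libraries.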
